A study of Homo sapiens with 18 samples.

Results

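The sugar carriers of the SLC2A family described here are SLC2A1, SLC2A3, SLC2A5, SLC2A6, SLC2A8, SLC2A10, SLC2A12 and SLC2A13. Every probe whose symbol in the platform annotation was 1 of these 8 genes was taken, which gave 9 of the 47323 probes on an Illumina HT-12 bead array, for 8 of 20046 genes with a probe of 1 symbol. SLC2A10 had 2 probes and each other gene had 1. The genes were chosen by name with earlier results of the same arrays known, among them the log2 change of SLC2A5 after p63 knockdown. Which other values weighed in the choice is not recorded, so all of their levels and changes are given as a description and no p-value is printed for them. The study ran 18 arrays of 3 established human urothelial cancer cell lines, with 3 arrays in each of 6 groups, to look for genes downstream of p63, STAT3 and PPAR gamma. UC14 cells carried a p63 shRNA or a non-targeting shRNA, Scaber cells a STAT3 siRNA or a non-targeting one, and UC7 cells received 1 µM rosiglitazone, a PPAR gamma agonist, for 24 h or served as the control. All cells were grown in MEM with fetal serum. No source says that replicates were grown apart, so tests here take in only array-to-array spread, possibly a technical one. The labels also do not give the number of shRNA or siRNA sequences, the time after silencing or the vehicle of the UC7 controls.

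SLC2A genes encode GLUT proteins, membrane carriers that let hexoses and related polyols cross down a concentration gradient, apart from SLC2A13, which moves myo-inositol together with protons. SLC2A1 (GLUT1) supplies basal glucose uptake in most cells, and SLC2A3 (GLUT3) is a high-affinity glucose carrier best known from neurons. SLC2A5 (GLUT5) is the fructose carrier of the small intestine. SLC2A6 and SLC2A8 are held mainly on membranes inside the cell, SLC2A10 is the gene mutated in arterial tortuosity syndrome, and SLC2A12 is a glucose carrier found in muscle and fat. Many carcinomas have high SLC2A1, which is the basis of tumour imaging with a labelled glucose analogue.

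Of the 8 genes, 7 were matched by symbol to RefSeq promoters of GRCh38.p14, and SLC2A3 was not. The 250 bases before the annotated start are printed for the carriers whose levels the comparisons below turn on, because SLC2A1 was lower in all 3 comparisons, SLC2A5 was at least 8.30-fold lower in 1 and SLC2A12 was 2.56-fold higher in 1. Capitals mark the GC box GGGCGG on either strand and the TATA box TATAAA on either strand, and all 3 are read 5′ to 3′ on the minus strand. The windows are chr1:42958869-42959118 for SLC2A1, chr1:9069636-9069885 for SLC2A5, which lies inside the annotated span of that gene, and chr6:134052625-134052874 for SLC2A12.
SLC2A1: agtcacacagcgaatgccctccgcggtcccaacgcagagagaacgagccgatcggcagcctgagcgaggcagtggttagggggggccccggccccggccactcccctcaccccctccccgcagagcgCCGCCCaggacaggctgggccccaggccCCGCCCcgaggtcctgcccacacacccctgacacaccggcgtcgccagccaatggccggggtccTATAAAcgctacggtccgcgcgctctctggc
SLC2A5: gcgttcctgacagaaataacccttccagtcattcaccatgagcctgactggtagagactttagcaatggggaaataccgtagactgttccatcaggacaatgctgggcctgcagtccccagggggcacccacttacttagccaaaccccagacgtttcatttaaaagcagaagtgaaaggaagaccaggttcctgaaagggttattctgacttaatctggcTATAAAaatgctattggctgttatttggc
SLC2A12: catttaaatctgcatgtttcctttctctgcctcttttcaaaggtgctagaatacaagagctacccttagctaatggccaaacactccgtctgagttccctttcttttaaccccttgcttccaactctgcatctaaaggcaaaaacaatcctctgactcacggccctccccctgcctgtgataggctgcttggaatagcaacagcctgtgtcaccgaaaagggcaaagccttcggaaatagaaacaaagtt
The SLC2A1 window held 2 GC boxes and a TATA box starting at position -31. The SLC2A5 window held a TATA box starting at -29 and no GC box, and the SLC2A12 window held neither. Among 35116 promoter windows of the same length, 42.6% held a GC box and 10.7% a TATA box. None of the 3 printed windows held a hypoxia response core (ACGTG or GCGTG, either strand, found in 43.2% of promoters), a CACGTG E-box, which overlaps that core (6.34%), a STAT motif TTCNNNGAA (6.57%), the PPAR direct repeat (0.0171%) or the p53 family decamer (5.57%). Hypoxia cores were found 3 times in SLC2A6 and 1 time in SLC2A10. SLC2A13 held 1 CACGTG E-box, starting at -25, which reads as a hypoxia core on either strand, and no other core. SLC2A8 held 6 GC boxes. A match or its lack describes the letters of these windows only.

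Levels below are log2 normalized signals, and they are compared within a probe, never between probes. A probe was called detected on an array when its deposited detection p, against the negative control beads of that array, was under 0.01. Tested probes were those detected on all 3 arrays of at least 1 group, and 8 of the 9 SLC2A probes were among the 16221 that passed. The exception was SLC2A13 (ILMN_1741502), the myo-inositol carrier, on chromosome 12 (39755025 to 40106081). It was detected on 0 of 18 arrays, with normalized values between 4.25 and 4.49, and was not tested.

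The arrays of the 3 lines differed in brightness before normalization. Raw array medians were 98.5 to 114 for UC14, 96.3 to 115.8 for Scaber and 51.6 to 56.3 for UC7, and 14032 to 15432, 16473 to 18021 and 19093 to 20440 probes were detected. Quantile normalization gives all arrays one distribution, so a level set across lines assumes that the lines have the same one. STAT3 in Scaber averaged 9.90 ± 0.03 (SD, n = 3) with the non-targeting siRNA and 6.64 ± 0.21 (n = 3) with the STAT3 siRNA at its brightest probe. No probe was annotated to TP63, so the depth of the p63 knockdown was not analysed here. In UC7 the PPAR target FABP4 rose from 6.65 ± 0.28 to 13.24 ± 0.03 (n = 3 each) with rosiglitazone. Of 5 tested PPAR targets 3 rose there, FABP4, PDK4 and ANGPTL4, against 12% of all genes tested. The other ANGPTL4 probe differed by 0.36 ± 0.25 (SE) on the log2 scale and was not called. PPARG itself fell by 0.37 ± 0.08 (SE) on the log2 scale at its brightest probe. Among defining markers of blood cells, CD3E, HBA1, HBB and ALAS2 were detected on 0 of 18 arrays. PTPRC was detected on 1 array by 1 of its 4 probes, and HBA2 on 3 arrays by 1 of its 2. HBG1, another globin gene, was detected on all 3 arrays of each UC7 group and on 0 arrays elsewhere. Of 7 leukocyte markers with a probe, 5 were detected on all 3 UC7 control arrays, against 1 to 3 in the other groups. Among the 5 were ITGAM, LYZ and AIF1, with UC7 control means of 5.35, 5.18 and 5.35. These means lie below the lowest detected signal of every UC14 array, so the counts of detected markers do not compare levels between lines. CD14, a monocyte marker, was detected on 15 of 18 arrays by its brighter probe, where it fell by 1.13 ± 0.28 (SE) in Scaber, rose by 1.45 ± 0.28 in UC7 and differed by -0.03 ± 0.28 in UC14. The 7 leukocyte markers with a probe summed to raw signals of 2591 to 2822 on the UC14 control arrays, 4144 to 5107 after p63 shRNA, 4786 to 5713 and 3490 to 4057 on the Scaber control and STAT3 siRNA arrays, and 1365 to 1547 and 1448 to 1619 on the UC7 control and rosiglitazone arrays. CD68, a lysosomal protein that is not limited to macrophages, was detected on all 18 arrays. At its brightest probe it rose by 1.26 ± 0.11 (SE) in UC14 and fell by 0.31 ± 0.11 in Scaber and 0.41 ± 0.11 in UC7. Its other probes also rose in UC14 and were not called in the other lines. The part of the leukocyte markers in the carriers' levels was not tested.

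**Figure D1:**
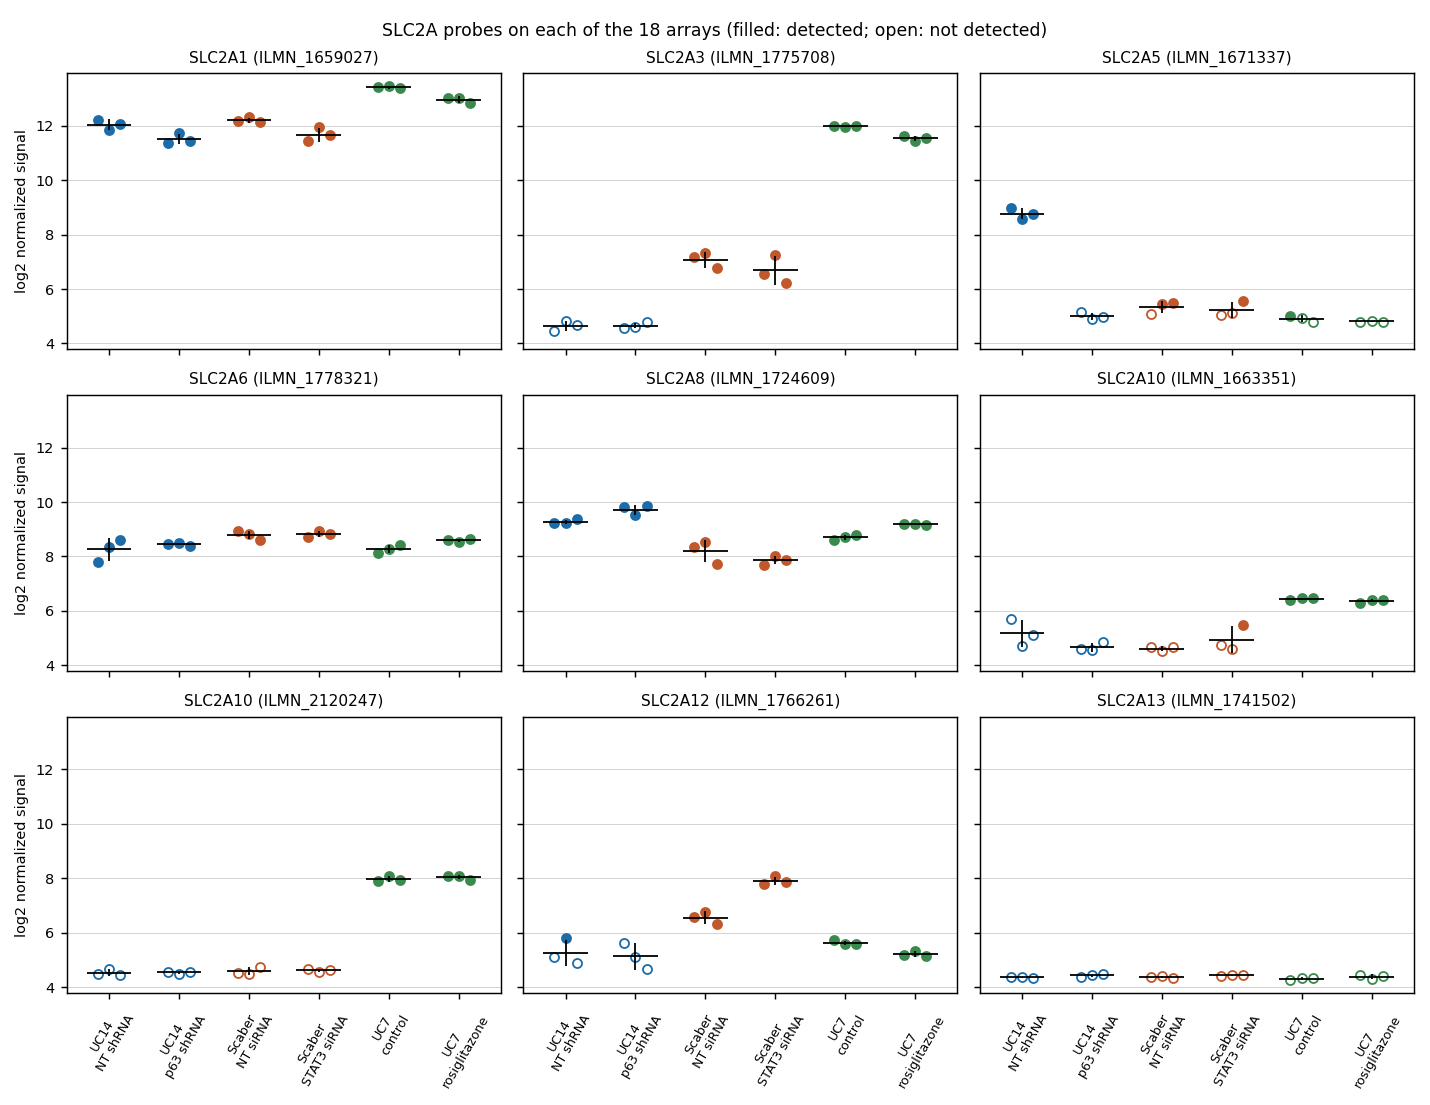
Log2 normalized signal (y axis) of the 9 SLC2A probes on each of the 18 arrays, by group (x axis). Points are single arrays, filled where the probe was detected and open where it was not, bars are group means and vertical lines 1 SD (n = 3). SLC2A3 stands between 11.95 and 12.01 on the UC7 control arrays and is undetected on every UC14 array, while SLC2A5 is bright in the UC14 control group alone.

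In the 3 control groups the carriers were set to different levels in different lines. The glucose carrier SLC2A1 (ILMN_1659027; gene at chromosome 1, 42925353 to 42958868, GRCh38.p14) was detected on all 18 arrays. Its control level was 13.42 ± 0.05 in UC7, 12.21 ± 0.09 in Scaber and 12.04 ± 0.20 in UC14 (SD, n = 3 each). The UC7 values lay above all others, and those of Scaber and UC14 overlapped. SLC2A3 (ILMN_1775708; chromosome 12, 7919230 to 7936187) was set apart by line. It read 11.98 ± 0.03 in UC7 and 7.08 ± 0.29 in Scaber, while all 6 UC14 arrays were undetected with 4.65 ± 0.18 in the controls. No 2 control groups overlapped for this probe.

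SLC2A5, the fructose carrier (ILMN_1671337; chromosome 1, 9035106 to 9094195), had another order. UC14 controls read 8.77 ± 0.19 with all 3 arrays detected, Scaber controls 5.35 ± 0.22 with 2 arrays detected, and UC7 controls 4.91 ± 0.12 with 1 detected (SD, n = 3 each). UC14 was thus the only line whose control arrays all showed this carrier.

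The carriers of inner membranes, SLC2A6 and SLC2A8, were detected on all 18 arrays. SLC2A6 (ILMN_1778321) lies on chromosome 9 (133471094 to 133479099). Its control mean was highest in Scaber at 8.78 ± 0.15, against 8.27 ± 0.15 in UC7 and 8.26 ± 0.41 in UC14. The UC14 values overlapped those of both other lines, with UC14 control array 3 at 8.621 and Scaber control array 3 at 8.617. SLC2A8 (ILMN_1724609; chromosome 9, 127397169 to 127407898) read 9.27 ± 0.08 in UC14, 8.70 ± 0.08 in UC7 and 8.20 ± 0.42 in Scaber, with no overlap.

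SLC2A10 (chromosome 20, 46708320 to 46736347) was seen in UC7. Its brighter probe (ILMN_2120247) read 7.97 ± 0.10 in UC7 controls and was undetected on all 12 arrays of the other lines. Its dimmer probe (ILMN_1663351) read 6.44 ± 0.04 in UC7 controls and was detected on 1 of the 12 other arrays, a STAT3 siRNA array. Both probes therefore gave the same picture by line.

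SLC2A12 (ILMN_1766261; chromosome 6, 133987581 to 134052624) was highest in Scaber controls at 6.55 ± 0.23, against 5.63 ± 0.07 in UC7 and 5.25 ± 0.48 in UC14 (SD, n = 3 each). The UC7 and UC14 values overlapped, and only 1 of the 3 UC14 control arrays was detected. Across the 6 groups, then, SLC2A1, SLC2A6 and SLC2A8 were the carriers detected on every array. SLC2A3 and SLC2A12 were detected on all arrays of Scaber and UC7, and SLC2A5 and SLC2A10 each belonged mainly to 1 line. For SLC2A12 this does not set UC7 above UC14, since detection reached lower levels on UC7 arrays. Its mean on the rosiglitazone arrays, all detected, was 5.22, below that of the UC14 controls. With 3 lines, the line and anything else that differed between their arrays cannot be told apart.

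Silencing p63, a transcription factor of basal epithelium, was set against the non-targeting shRNA in UC14. SLC2A5 was at least 8.30-fold lower and SLC2A1 1.44-fold lower, and SLC2A8 was 1.36-fold higher. The 3 probes were the ones past an adjusted p of 0.05, 1 higher and 2 lower of 8, where 41.9% of all tested probes passed in either direction, 22% higher and 19.9% lower. The same 3 were the ones whose groups did not overlap, against 44.7% of all tested probes. The median change of the 8 probes was -0.06 on the log2 scale and that of all tested probes 0.

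**Figure D2:**
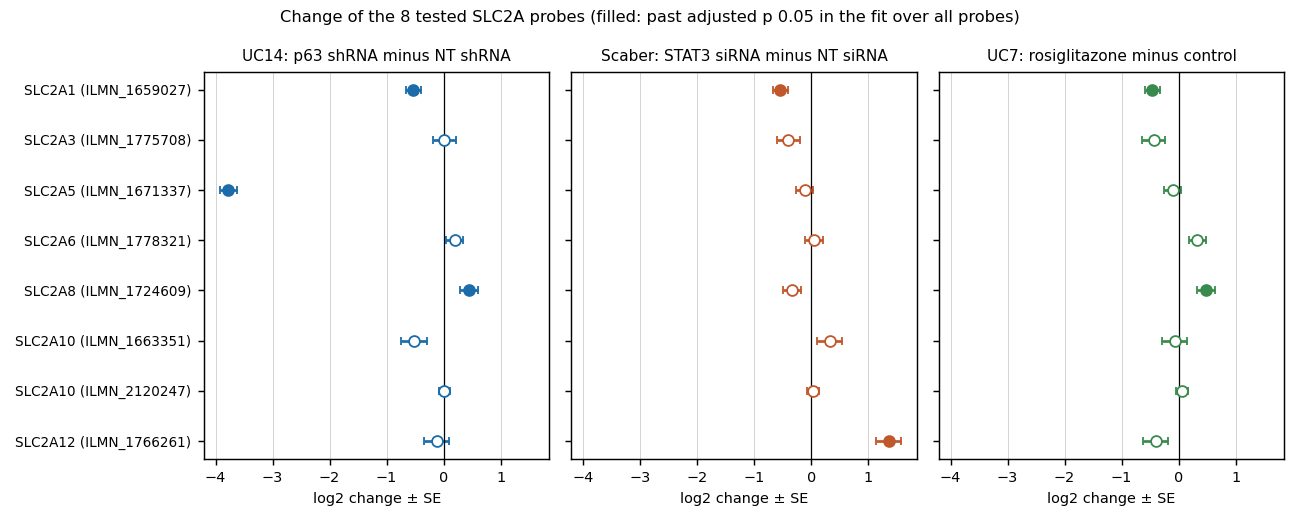
Log2 change ± SE (x axis) of the 8 tested SLC2A probes in UC14, Scaber and UC7, treated minus control, from the fit over all probes. Filled points passed an adjusted p of 0.05: SLC2A1 lies between -0.54 and -0.46 in all 3 panels, SLC2A5 is at -3.78 in UC14 and SLC2A12 at 1.36 in Scaber.

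SLC2A5 was low on every p63 shRNA array. Its control arrays read 8.97, 8.58 and 8.77 and its p63 shRNA arrays 5.15, 4.88 and 4.96. All 3 controls were detected and no p63 shRNA array was, and the groups stood far apart. The fitted change was -3.78 ± 0.15 (SE), and because the knockdown group was below detection, the ratio is stated as a bound, the control mean over the lowest detected signal of each p63 shRNA array. With no background correction, as in the authors' deposited values, the change was -2.39, a smaller size than the bound, which holds for background-corrected values.

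SLC2A1 read 12.23, 11.84 and 12.05 on the control arrays and 11.37, 11.72 and 11.45 on the p63 shRNA arrays. The lowest control array was above the highest knockdown array. The change was -0.53 ± 0.13, and it ran between -0.63 and -0.41 over 17 alternative settings, all past the threshold.

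SLC2A8 read 9.22, 9.23 and 9.37 on control arrays and 9.80, 9.51 and 9.84 after p63 shRNA. Every p63 shRNA array was above every control array. The change was 0.44 ± 0.16, and it fell short of the threshold without p63 shRNA array 1 (0.40) or 3 (0.38), without control array 1 or 2 (0.42 each) or with no detection filter (0.44).

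The other carriers did not pass the threshold in UC14. SLC2A6 differed by 0.19 ± 0.15, with control arrays at 7.81, 8.34 and 8.62 around knockdown arrays between 8.40 and 8.49, and without control array 3 its value of 0.37 passed the threshold. The 2 SLC2A10 probes (-0.52 ± 0.22 and 0.01 ± 0.10), SLC2A3 (0.01 ± 0.20) and SLC2A12 (-0.12 ± 0.22) were undetected on all 6 arrays, except SLC2A12 on 1 control array. For those probes the values describe signal near background. The dimmer SLC2A10 probe passed the threshold without control array 2, at -0.75.

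The p63 shRNA arrays also had other urothelial markers. Of 8 tested basal markers 5 fell and 0 rose, with KRT5 at least 15.9-fold lower. Of 14 tested luminal markers 11 rose and 0 fell, with UPK2 at least 21.2-fold higher. With no background correction KRT5 changed by -3.64 and UPK2 by 3.67 on the log2 scale, smaller sizes than these bounds. Of 8 tested squamous markers 3 rose and 2 fell. Over all genes tested in UC14, 23.3% rose and 20.5% fell. The summed raw signal of the 15 luminal markers was 20320 to 24890 on control and 32830 to 44060 on p63 shRNA arrays, and that of the 8 basal markers with a probe was 6684 to 7941 and 5014 to 7618. The part of these marker changes in the carriers' levels was not tested. In such bulk RNA, fewer cells of a kind and less RNA per cell cannot be told apart.

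Silencing STAT3, a transcription factor activated by cytokines and growth factors, was compared in Scaber. SLC2A12 was 2.56-fold higher and SLC2A1 1.45-fold lower with the STAT3 siRNA. They were the 2 of 8 probes past the threshold, 1 in each direction, where 24.5% of all tested probes passed, 11.4% higher and 13.1% lower. They were also the 2 probes with no overlap, against 37.9% of all tested probes. The median change of the 8 was -0.04 and that of all tested probes 0.01.

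SLC2A12 read 6.56, 6.77 and 6.31 on non-targeting arrays and 7.77, 8.06 and 7.87 on STAT3 siRNA arrays. All 6 arrays were detected and the lowest STAT3 siRNA array stood above the highest control. The change was 1.36 ± 0.22, and 0.94 without background correction. It passed the threshold in all 17 alternatives, between 0.94 and 1.47.

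SLC2A1 read 12.18, 12.31 and 12.14 on control arrays and 11.43, 11.94 and 11.65 on STAT3 siRNA arrays. The groups did not overlap, and the 3 STAT3 siRNA arrays were spread more widely than the controls. The change was -0.54 ± 0.13, between -0.68 and -0.42 over the 17 alternatives, all past the threshold.

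SLC2A3 read 7.16, 7.33 and 6.76 with the non-targeting siRNA and 6.57, 7.25 and 6.23 with the STAT3 siRNA. The groups overlapped through STAT3 siRNA array 2. The difference of -0.40 ± 0.20 was not past the threshold, but it was without that array (-0.69). SLC2A8 read 8.33, 8.53 and 7.73 on control and 7.70, 8.01 and 7.86 on STAT3 siRNA arrays, a difference of -0.34 ± 0.16 with overlap, which passed without control array 3 (-0.57). Both of these also passed under median scaling, at -0.53 and -0.50, and with array weights, at -0.59 and -0.42.

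SLC2A6 averaged 8.78 ± 0.15 and 8.83 ± 0.11 (SD, n = 3 each), a difference of 0.05 ± 0.15 (SE). SLC2A5 differed by -0.11 ± 0.15 near its detection limit, with 2 control arrays and 1 STAT3 siRNA array detected. The SLC2A10 probes differed by 0.33 ± 0.22 and 0.03 ± 0.10 and were undetected apart from the array named above. Basal markers also moved in this comparison, with 5 of 8 lower and 0 higher. Of 8 tested squamous markers 4 fell and 1 rose, and of 14 tested luminal markers 2 fell and 0 rose. Over all genes tested in Scaber, 13.6% fell and 11.8% rose. The summed raw signal of the basal markers was 17750 to 19440 in controls and 9941 to 12390 with the STAT3 siRNA. The part of these markers in the carriers' levels was not tested.

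Rosiglitazone was compared with control in UC7. SLC2A1 was 1.37-fold lower and SLC2A8 1.39-fold higher, and these 2 of 8 probes passed the threshold, where 22.3% of all tested probes did, 11.1% higher and 11.2% lower. The groups did not overlap for 5 of the 8 probes, SLC2A1, SLC2A3, SLC2A6, SLC2A8 and SLC2A12, against 49.5% of all tested probes. The median change was -0.09 for the 8 probes and -0.01 for all tested probes. Leaving out single UC7 arrays gave 0 or 1 of the 8 past the threshold.

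SLC2A1 read 13.41, 13.47 and 13.38 on control arrays and 13.03, 13.03 and 12.83 on rosiglitazone arrays. Every treated array was below every control. The change was -0.46 ± 0.13, and it missed the threshold without rosiglitazone array 3 (-0.39), control array 1 (-0.46) or control array 2 (-0.43).

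SLC2A3 read 12.01, 11.95 and 11.98 on control arrays and 11.64, 11.46 and 11.54 with rosiglitazone, again with no overlap. The difference was -0.44 ± 0.20 and not past the threshold. The fit takes 1 spread per probe over all 6 groups, and the SD of this probe was 0.29 and 0.52 in the Scaber groups against 0.03 and 0.09 in the UC7 groups. With only the 6 UC7 arrays in the fit the same difference was past it, as it was with array weights, an offset of 50, no background correction (-0.43), the authors' values (-0.43) or a replicate block.

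SLC2A8 read 8.62, 8.70 and 8.78 on control arrays and 9.18, 9.20 and 9.15 on rosiglitazone arrays. All treated arrays were above all controls. The change was 0.48 ± 0.16, but it missed the threshold in each of the 6 fits that left out 1 UC7 array, at 0.44 to 0.52, under median scaling (0.36) and with no detection filter (0.48).

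SLC2A6 lay higher and SLC2A12 lower on every rosiglitazone array than on every control. SLC2A6 read 8.12, 8.27 and 8.41 in controls and 8.62, 8.53 and 8.64 with rosiglitazone, a difference of 0.33 ± 0.15. SLC2A12 read 5.71, 5.59 and 5.58 in controls and 5.18, 5.34 and 5.14 with rosiglitazone, a difference of -0.40 ± 0.22. Neither passed the threshold over 18 arrays, and both did with array weights or with the 6 UC7 arrays alone. SLC2A12 also passed under median scaling, at -0.63. With no background correction and in the authors' values its difference was -0.17 and did not pass.

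The 2 SLC2A10 probes did not separate the UC7 groups. The brighter one read 7.91, 8.09 and 7.92 in controls and 8.08, 8.07 and 7.95 with rosiglitazone, a difference of 0.06 ± 0.10, and the dimmer one differed by -0.07 ± 0.22. SLC2A5 differed by -0.10 ± 0.15, with 1 of the 6 arrays detected. Of 14 tested luminal markers 8 rose and 1 fell in UC7, and of 8 basal markers 1 rose and 4 fell, where 12% of all genes tested rose and 11.6% fell. Of 8 tested squamous markers 5 rose and 1 fell, beside the same shares. The summed raw signal of basal markers was 8268 to 9420 in controls and 3405 to 3882 with rosiglitazone. That of squamous markers was 12770 to 13120 in controls and 54180 to 61120 with rosiglitazone. The part of these markers in the carriers' levels was not tested.

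Side by side, SLC2A1 was lower by 0.53, 0.54 and 0.46 on the log2 scale after p63 shRNA, STAT3 siRNA and rosiglitazone. These are different agents in different lines with their own controls, and whether the sizes differ was not tested. The shares of higher and lower calls among all probes moved with the scaling. Quantile normalization gave 3561 higher and 3234 lower probes in UC14, 1847 and 2129 in Scaber and 1807 and 1809 in UC7. Median scaling gave 3940 and 1614, 558 and 2451, and 1447 and 2148, with all-probe medians of 0.09, -0.07 and -0.07. SLC2A1 kept its direction and its side of the threshold in each line under both.

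The remaining family members had 11 probes for 6 genes. SLC2A2, the carrier of liver and pancreatic beta cells, SLC2A4, the insulin-responsive carrier of muscle and fat, and SLC2A7 were undetected on all 18 arrays. SLC2A9, a urate carrier (ILMN_1668312), fell by 2.75 on the log2 scale (± 0.16 SE) after p63 shRNA, from 8.44 ± 0.09 to 5.69 ± 0.43 (SD, n = 3 each), with all 3 control arrays and 1 knockdown array detected. It was undetected in UC7. In Scaber it changed by -0.48 ± 0.16, a call lost without STAT3 siRNA array 2 (-0.51) or 3 (-0.38) or without control array 2 or 3 (-0.45 each), and with no detection filter (-0.48). Its other 2 probes were not tested, and 1 of them was detected on 1 UC14 control array.

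SLC2A14, the neighbour and close copy of SLC2A3, was detected in UC7 alone. It fell there by 0.74 ± 0.10 (SE), from 6.63 ± 0.14 to 5.89 ± 0.16 (SD, n = 3 each). Probe sequences were not used here, so signal from SLC2A3 and SLC2A14 cannot be told apart. SLC2A11 fell at ILMN_1748090 in Scaber, by at least 1.05-fold, since no STAT3 siRNA array was detected, and its other tested probe differed by 0.02 ± 0.13. That call was lost without STAT3 siRNA array 2 (-0.39) or control array 1 (-0.42) or 3 (-0.45), and under median scaling (-0.41), without background correction (-0.19) and in the authors' normalized values (-0.19).

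Glucose that enters through these carriers is trapped by hexokinase and broken down by glycolysis. Of 22 tested genes of glycolysis and lactate export, 4 rose and 12 fell after p63 shRNA, 0 rose and 8 fell after STAT3 siRNA, and 0 rose and 13 fell with rosiglitazone. Among all 11978 genes tested, 23.3% rose and 20.5% fell in UC14, 11.8% and 13.6% in Scaber, and 12% and 11.6% in UC7. The list's median change was -0.33, -0.16 and -0.32, against 0.01, 0.01 and 0 for all genes. Under median scaling the counts were 5 higher and 8 lower, 0 and 9, and 0 and 10. The glycolysis list, like the others here, was drawn up with earlier results known.

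**Figure D3:**
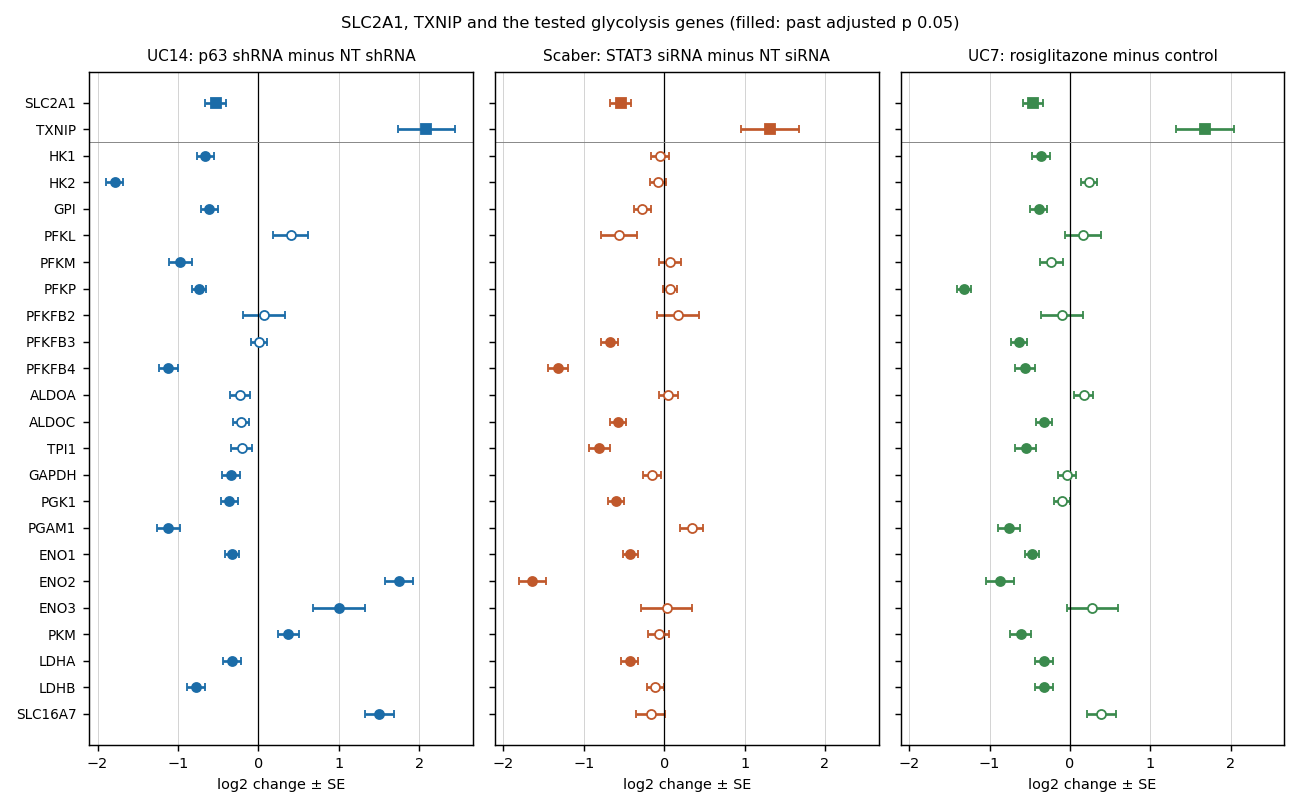
Log2 change ± SE (x axis) of SLC2A1 and TXNIP (squares) and of the 22 tested glycolysis and lactate export genes (circles), treated minus control, in UC14, Scaber and UC7. Filled points passed an adjusted p of 0.05, and 12, 8 and 13 of the 22 lie filled on the lower side.

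For each line the called genes with the largest changes are given first. In UC14, HK2, the inducible hexokinase, fell by 1.79 ± 0.10 (SE), and its other probe went from 3 arrays detected to 0. ENO2, an enolase of neurons, was at least 1.46-fold higher, from 0 to 3 arrays detected. SLC16A7, a monocarboxylate carrier, rose by 1.5 ± 0.18 at its brighter probe with 1 control array detected, and differed by 0.07 ± 0.12 at the other, which was undetected in UC14.

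In Scaber, ENO2 fell by 1.64 ± 0.17, PFKFB4, which makes the activator of phosphofructokinase, fell by 1.32 ± 0.12, and the triose isomerase TPI1 fell by 0.81 ± 0.13. HK2 read 8.49 ± 0.10 and 8.41 ± 0.03 (SD, n = 3 each), a difference of -0.08 ± 0.10. In UC7, PFKP, the platelet form of phosphofructokinase, fell by 1.32 ± 0.09, ENO2 by 0.87 ± 0.17 and the mutase PGAM1 by 0.76 ± 0.14. All of these calls were past an adjusted p of 0.05 in limma's test and in each alternative run. A gene given for one line was in some cases also called in another. PFKFB4 fell in UC14 by 1.12 ± 0.12 and in UC7 by 0.56 ± 0.12 as well, and PGAM1 fell in UC14 by 1.12 ± 0.14.

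**Figure D4:**
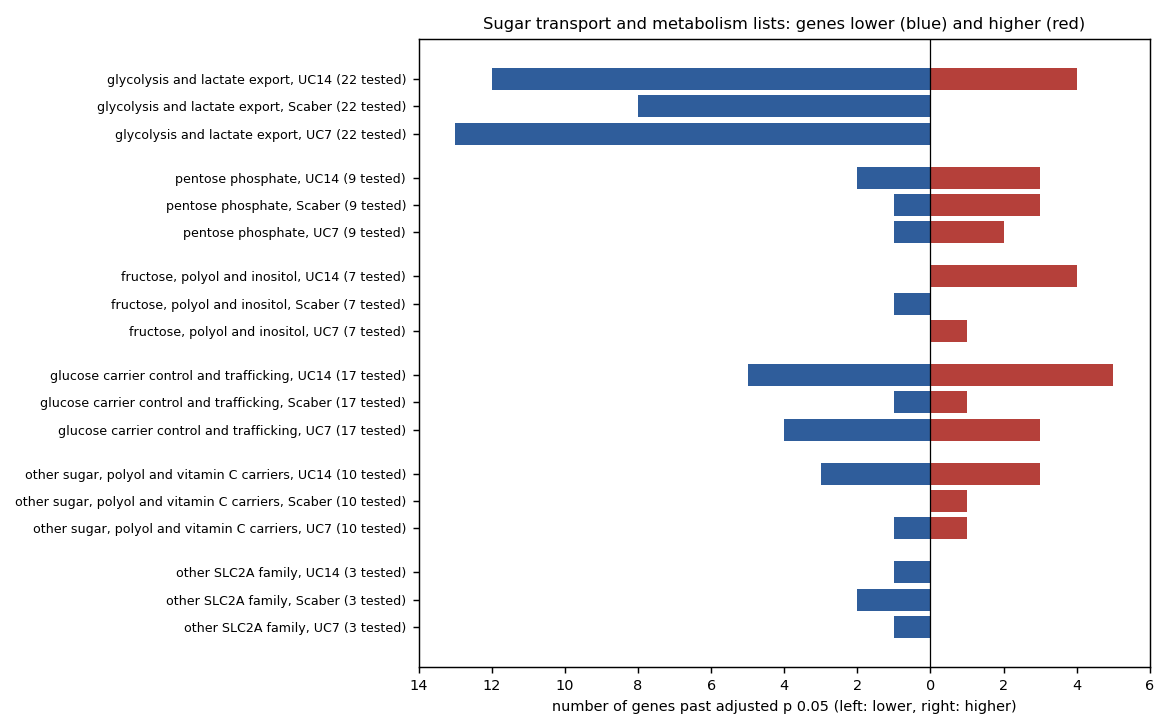
Number of genes (x axis) that fell (blue, left) and rose (red, right) past an adjusted p of 0.05 in each list of sugar transport and metabolism, for UC14, Scaber and UC7. The glycolysis list has 12, 8 and 13 genes on the lower side.

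Genes that control glucose carriers moved as follows. Of 17 tested, 5 rose and 5 fell in UC14, 1 rose and 1 fell in Scaber, and 3 rose and 4 fell in UC7. The shares of all genes tested were 23.3% up and 20.5% down in UC14, where the list was near them, 11.8% and 13.6% in Scaber, where the list was below both, and 12% and 11.6% in UC7. TXNIP, which is known to drive SLC2A1 protein from the cell surface, rose by 2.09 ± 0.36 (SE) in UC14 and by 1.68 ± 0.36 in UC7. In Scaber its change was 1.32 ± 0.36 with overlapping groups, and the call was lost without STAT3 siRNA array 2 (0.80), without control array 3 (1.00) or with the 6 Scaber arrays alone. MYC, a transcription factor that can drive SLC2A1, fell by 0.93 ± 0.09 in UC14 and 1.69 ± 0.09 in UC7. In Scaber, where SLC2A1 was also lower, MYC differed by -0.04 ± 0.09 and was not called. TBC1D4, which controls traffic of insulin-responsive carriers, fell by 1.04 ± 0.16 in UC14.

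HIF1A, the hypoxia factor, fell in UC7 by 1.29 ± 0.14 at its brightest probe, and its other probes read -1.33 ± 0.14 and -1.32 ± 0.15. It also fell in UC14, by 0.37 ± 0.14 at the brightest probe, with -0.85 ± 0.14 and -0.72 ± 0.15 at the others. In Scaber HIF1A differed by -0.34 ± 0.14 and was not called. EPAS1, another hypoxia factor of this list, went the other way. It rose by 0.9 ± 0.13 in UC14 and 0.45 ± 0.13 in UC7, and its difference of 0.22 ± 0.13 in Scaber was not called. EGLN3, an oxygen sensor that is itself a hypoxia target, was at least 1.90-fold lower in Scaber. With no background correction that change was -0.59 on the log2 scale, a smaller size than the bound. In UC7 EGLN3 fell by 0.57 ± 0.14.

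In the fructose, polyol and inositol list, 4 of 7 tested genes rose and 0 fell in UC14, 0 rose and 1 fell in Scaber, and 1 rose and 0 fell in UC7. Beside the 4 of 7 in UC14 stands a share of 23.3% of all genes tested, and in Scaber and UC7 the single calls were near the shares of 13.6% and 12%. AKR1B10, an aldo-keto reductase, rose by 2.85 ± 0.24 in UC14, with 1 control array detected, and 2.24 ± 0.24 in UC7. In Scaber it fell by 0.85 ± 0.24, a call lost without STAT3 siRNA array 2 (-0.74) or control array 1 (-0.79) or 3 (-0.77). In UC14 the inositol phosphatase IMPA2 rose by 0.91 ± 0.13 and the triose kinase TKFC by 0.85 ± 0.20, with 1 control array detected.

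The pentose phosphate list had 3 genes up and 2 down of 9 in UC14, 3 and 1 in Scaber, and 2 and 1 in UC7. All genes tested gave 23.3% up and 20.5% down in UC14, so the list's counts there were near the background, 11.8% and 13.6% in Scaber, and 12% and 11.6% in UC7. TALDO1, transaldolase, rose by 0.66 ± 0.09 in UC14 and PGD, the phosphogluconate dehydrogenase, by 0.51 ± 0.09, while PRPS2, a ribose phosphate pyrophosphokinase, fell by 0.53 ± 0.10. In UC7 RPIA, the ribose phosphate isomerase, rose by 0.71 ± 0.15, TALDO1 changed by 0.37 ± 0.09, a call lost under median scaling (0.30), and PRPS1 fell by 0.39 ± 0.10. In Scaber the calls on PGD (0.40 ± 0.09), TKT (0.35 ± 0.11) and PRPS2 (-0.32 ± 0.10) each ended in at least 1 alternative. PGD lost its call under median scaling (0.28), as did TKT (0.27). TKT also lost it without STAT3 siRNA array 2 (0.30) or 3 (0.33) or control array 2 (0.30) or 3 (0.36), and with the 6 Scaber arrays alone (0.35). PRPS2 lost it without STAT3 siRNA array 2 (-0.32) or 3 (-0.25) or control array 3 (-0.26), and, at -0.32, with either replicate block and with the 6 Scaber arrays alone. Its other probe read -0.09 ± 0.13 and was not called.

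Of the 10 tested carriers of sugars, polyols and vitamin C outside the family, 3 rose and 3 fell in UC14, 1 rose and 0 fell in Scaber, and 1 rose and 1 fell in UC7. These counts were near the shares of all genes tested, 23.3% up and 20.5% down in UC14, 11.8% and 13.6% in Scaber, and 12% and 11.6% in UC7. SLC37A2, a sugar phosphate exchanger, was at least 2.52-fold lower in UC14 and rose by 0.98 ± 0.11 in Scaber, with 2 control arrays detected. SLC23A1, a vitamin C carrier, was at least 1.37-fold higher in UC14. SLC50A1, the human member of the SWEET sugar carriers, rose by 0.94 ± 0.13 in UC14 and by 0.53 ± 0.13 in UC7, where its other probe read 0.38 ± 0.15 and was not called. SLC37A3 fell in UC7 by 0.47 ± 0.11.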

How the data were processed

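Total RNA of 18 samples was labelled as biotinylated cRNA and hybridised to Illumina HT-12 bead arrays, per the labels' protocols. The deposited intensity of each probe was not normalized, and each came with a detection p-value against the negative control beads of its array, per the file headers. The authors also deposited log2 values, which were found to be the raw signals quantile-normalized over the 18 arrays. A tool, limma, is listed with no version, per the submitters' processing notes.

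The raw intensities were background-corrected with normexp fitted through the detection p-values (offset 16), quantile-normalized over 18 arrays and taken to log2. Of 47323 probes, 30113 had 1 gene symbol, 8 had several and 17202 were not listed, and 30074 of the named ones matched RefSeq. The 16221 probes kept had 1 symbol and were detected (p under 0.01) throughout at least 1 group. limma 3.58.1 (R 4.3.3) fitted 6 group means with 12 residual degrees of freedom and a prior of 4.27, and two-sided p-values were adjusted by Benjamini-Hochberg over all probes, with 0.05 as the threshold. ± after a change is its SE. In gene lists a gene takes the call of its brightest kept probe. A group undetected on all 3 arrays has only a bound, which holds for background-corrected values. It sets the bright group's mean against the mean of each dim array's lowest detected signal or the probe's own if higher. Beyond the 9 SLC2A probes, the genes named are, for each list and comparison, up to 3 genes with the largest change among those called, and for each carrier the 3 genes with the highest Pearson r over the arrays. HK2 in Scaber, PFKFB4 in UC14 and UC7, PGAM1 in UC14 and HIF1A in UC14 and Scaber were named after their values were seen. So were MYC in Scaber, EGLN3 in UC7, EPAS1, CD14, HBG1, ITGAM, LYZ and AIF1.

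The members and lists were chosen with earlier results of these data known. Alternatives changed the background correction, normalization, offset, detection filter, probes per gene, arrays in the fit, array weights and replicate block, and left out each array in turn. The procedure was tested on simulated data. Arrays give no counts, so precision rests on 3 arrays a group, on the spread between them, which may be technical, and on signal over background.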

Additional observations from a re-analysis of the deposited data

How the results depend on the processing

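All 17 alternatives of each comparison were run. SLC2A5 in UC14, SLC2A12 in Scaber and SLC2A1 in UC14 and Scaber kept their direction and their call in all 17, and no called change of an SLC2A probe turned its direction in any. Of the single SLC2A probe values under an alternative, 367 stayed on their side of the threshold, 22 gained a call and 16 lost it. Of the named pathway genes, 666 stayed and 31 lost it. Of the counts, 314 stayed within 1.5 times and 43 did not. In Scaber 2 SLC2A probes were called, and 4 were under median scaling and with array weights. In UC7 it was 2, with 1 under no detection filter, and 5 with array weights and with the 6 UC7 arrays alone. Leaving out single arrays gave between 2 and 4 calls in UC14, between 2 and 3 in Scaber and 0 or 1 in UC7. For the control and trafficking list, the 6 UC14 arrays alone gave 6 calls in place of 10 and leaving out arrays 6 to 8. In Scaber it had 2, with 4 under median scaling, 6 with array weights and 1 with the 6 Scaber arrays alone, and 2 to 3 on leaving out arrays. In UC7 it had 7, with 4 to 6 on leaving out arrays. The rest of the SLC2A family had 2 calls in Scaber, with 1 under no background correction, the authors' values, median scaling, no detection filter and averaged probes, and 0 to 2 on leaving out arrays. The other sugar carriers had 1 call in Scaber and 2 with averaged probes. The pentose phosphate list had 4 in Scaber, with 1 under median scaling and with the 6 arrays alone, 2 with either replicate block, and 1 to 3 on leaving out arrays. The fructose, polyol and inositol list had 1 call in Scaber, 0 to 1 on leaving out arrays, and 1 in UC7, where median scaling, array weights and averaged probes gave 2 and the 6 UC7 arrays 3. The cause of these shifts was not tested.

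Replicate numbers did not pair the samples, because the correlation of same-numbered deviations ran from -0.093 to 0.232 and was not over 0.1 in every pair. In UC7 the title letters and the replicate numbers differ, so a block was run by each. Either replicate block gave 2 pentose phosphate calls in Scaber in place of 4 and added a call on SLC2A3 in Scaber (-0.40) and in UC7 (-0.44). Signal near background limits SLC2A3 in UC14, SLC2A12 in UC14 and UC7, SLC2A5 outside UC14 controls, SLC2A10 outside UC7 and SLC2A13 throughout.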

Other observations

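The genes whose levels over the 18 arrays were most like each carrier's, by Pearson's r, are given as a description, since arrays of a line come from the same cells. For SLC2A1 they were VOPP1 (0.967), PGM1 (0.964), a phosphoglucomutase of glycogen metabolism, and NDFIP2 (0.960). For SLC2A3 they were HOXA11-AS (0.994), INAVA (0.993) and ERP27 (0.993). SLC2A5 was closest to CAPNS2 (0.990), a small calpain subunit, PIK3C2G (0.969) and SYNDIG1 (0.968). For SLC2A6 the values were lower, with HMG20B at 0.886, MAD1L1 at 0.882 and MAP3K5 at 0.866. SLC2A8 was closest to GPR160 (0.969), SHMT1 (0.962) and BRI3BP (0.961). For the brighter SLC2A10 probe, on in UC7 alone, they were FPR3 (0.999), PODXL2 (0.999) and BEX4 (0.998). SLC2A12 was closest to NUDT2 (0.962), S1PR1 (0.961) and CPED1 (0.961).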
